A study of Mus musculus with 6 samples.

Results

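DNA replication and repair genes were followed in mouse lung 14 days after bleomycin. The 46 genes were taken by name: 35 that license, build or supply the replication fork and 11 that repair DNA or signal its damage. Of these, 45 had a probe set with a single gene symbol, which left 34 replication genes and 11 repair genes out of 12393 genes measured, and Chaf1a was not analysed here. Where a gene had several probe sets, the brightest on average was used.

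Lungs D, E and F came from 3 mice given bleomycin at 1 mg/kg in 50 µl of saline, and lungs A, B and C from 3 mice given saline. All 6 were labelled wild-type male C57BL/6J mice of 8 to 10 weeks, killed at day 14. The design text names the oropharyngeal route and the source labels the intratracheal one, so the route is not settled here. The labels give 1 mouse per array within each group, so the spread is between mice. RNA of the frozen, pulverised lobes, without trachea and major airways, was measured on 1 Affymetrix MOE430A array per mouse, and values are log2 expression per probe set. The lung identity of the tissue was checked on 8 epithelial markers (surfactant genes, Ager, Cldn18, Aqp5 and Scgb1a1), none of which fell under 10.31 on any array.

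Before each division a cell loads the MCM helicase onto replication origins, opens the DNA, copies it with polymerases held by the clamp PCNA, and needs a supply of deoxynucleotides and new chromatin. Most of these genes are transcribed mainly in cycling cells, under E2F transcription factors, and few cells of the healthy adult lung divide. Repair genes are more mixed: Brca1, Exo1 and Rad51ap1 work on replicated DNA in dividing cells, while the Ku proteins (Xrcc5 and Xrcc6), Parp1 and Atm also act in resting cells. Bleomycin itself cuts DNA strands and, given into the airways, is a widely used trigger of lung fibrosis.

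2 arrays stood apart. Saline B carried Xist, the transcript of the inactive X chromosome, at 11.40, against 7.23 to 7.88 on the other arrays, and the Y-linked Eif2s3y at 4.05, against 7.23 to 8.02, so both go against its label as male. Bleomycin D scored 44.28 on the first principal component, against 12.88 for E and 19.79 for F, and -28.64 to -21.44 for the saline arrays. RNA integrity was read as the 3-prime minus 5-prime difference of the chip's own controls. It was 1.04 to 1.27 in bleomycin lungs and 1.14 to 1.71 in saline lungs for Actb. For Gapdh it was 0.81 to 1.10 in bleomycin lungs and 0.88 to 1.46 in saline lungs. The groups overlapped only through saline B, at 1.14 for Actb and 0.88 for Gapdh. Saline A and C, at 1.58 and 1.71 for Actb and 1.46 and 1.39 for Gapdh, lay above every bleomycin lung. What RNA integrity adds to the differences was not tested. Results are given with and without B and D where these change them.

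Replication genes were mostly higher after bleomycin, by small amounts. Of the 34, 29 had a positive difference (bleomycin minus saline), with a median of 0.37 log2 units and a range of -0.23 to 1.34, beside a median of -0.04 over all 12393 genes. In limma, 3 rose and 0 fell at an adjusted p under 0.05 (Rrm2, Rfc4 and Rfc3), where 5.60% of all genes were called in either direction, 3.70% higher and 1.90% lower. At an unadjusted p under 0.05, 16 of the 34 were higher and 0 lower, beside 11.7% of all genes higher and 1363 of the 12393 lower. The 3 bleomycin lungs lay wholly above the 3 saline lungs for 18 of the 34, beside 13.3% of all genes, and wholly below for 0, beside 14.6% of all genes. Without saline B the number above was 20 (18.1% of all genes), without bleomycin D 19 (16.2%), and without both 20 (21.6%). The 3 calls were sensitive to single arrays. With all 6 arrays 458 of all genes were called higher. Without saline A 0 replication genes were called higher, beside 163 of all genes. Only 1 (Rrm2) was called higher without saline C, bleomycin D or bleomycin F, beside 266, 299 and 211 of all genes. It was 2 without saline B (Rrm2 and Mcm5) and 2 without bleomycin E (Rrm2 and Rfc3), beside 306 and 385 of all genes. Without both saline B and bleomycin D 3 were called, and these were Rrm2, Tk1 and Mcm5.

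Repair genes stood closer to 0. Of the 11, 9 had a positive difference, with a median of 0.20 and a range of -0.32 to 0.36. In limma 0 rose and 0 fell, beside 3.70% of all genes higher and 1.90% lower. At an unadjusted p under 0.05 there were 3 (Msh6 and Rad51ap1 higher, Atm lower), beside 22.7% of all genes in either direction. The bleomycin lungs lay wholly above the saline lungs for 3 (Msh6, Rad51ap1 and Xrcc6), beside 13.3% of all genes. In Rad51ap1 the margin was close to a tie, with lung E at 5.853 and saline C at 5.851. They lay wholly below for 1 (Atm), beside 14.6% of all genes. Without saline B the number above was 6, beside 18.1% of all genes. The difference between the replication and the repair genes was not tested.

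**Figure D1:**
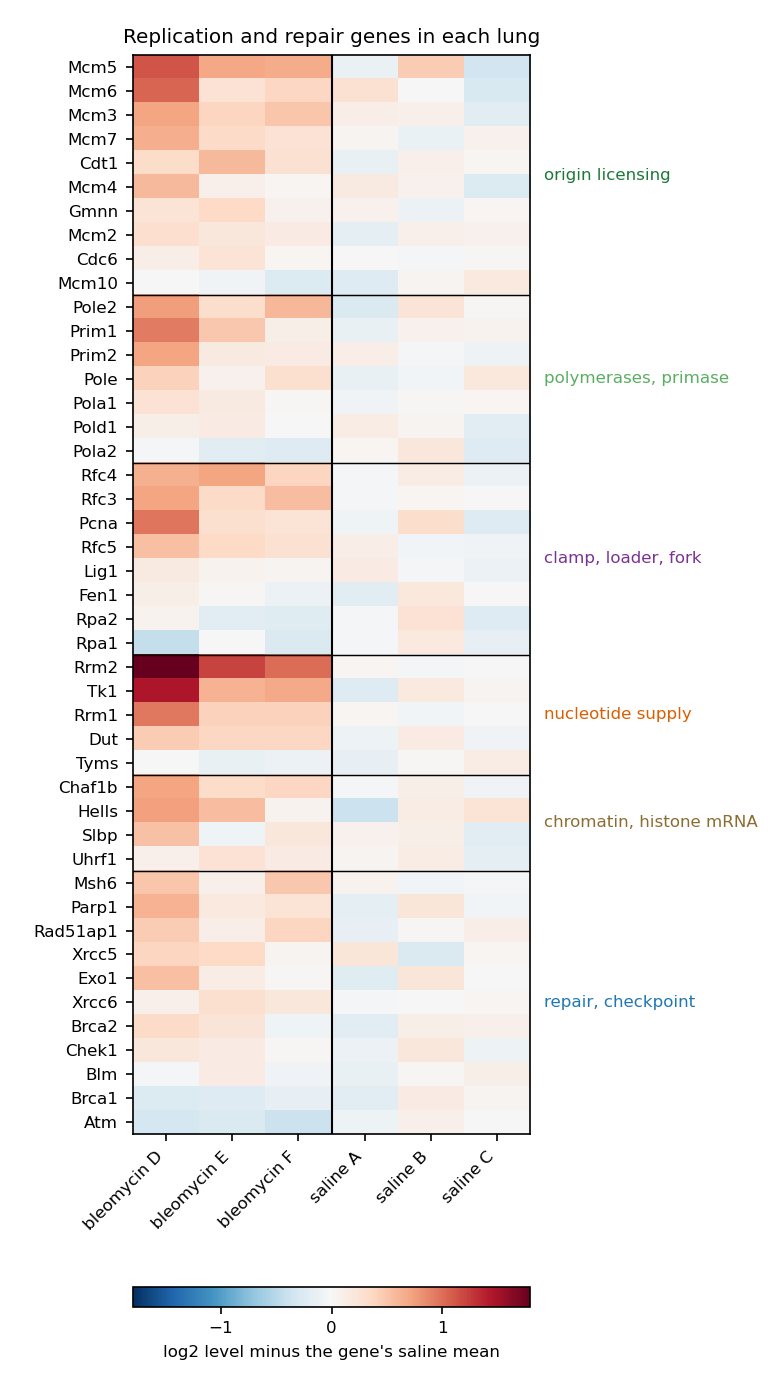
Log2 level of each of the 45 genes in each lung minus that gene's saline mean (red higher, blue lower), with the bleomycin lungs D, E and F left of the saline lungs A, B and C and the genes grouped by role and ordered by difference. The red of the bleomycin columns is strongest in lung D and in Rrm2 and Tk1, and Atm is the gene whose 3 bleomycin lungs are all below its saline lungs.

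The amount differed between the bleomycin mice. The median level of the 34 replication genes, relative to each gene's saline mean, was 0.53 in lung D, 0.28 in E and 0.17 in F, against -0.03, 0.08 and -0.03 in saline A, B and C. For the 11 repair genes it was 0.34, 0.14 and 0.03 in D, E and F, against -0.13, 0.10 and 0.04 in A, B and C. Lung E was thus just above the highest saline lung, and lung F lay inside the saline range. Lung D was the highest of the 6 for 22 of 34 replication genes and 6 of 11 repair genes, while it was the highest for 23.7% of all genes. Without bleomycin D the median difference was 0.24 for the replication genes and 0.08 for the repair genes. Without saline B the medians were 0.34 and 0.22.

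Some lists of cell type markers also differed between the groups, higher or lower, and others did not. Of 9 macrophage markers 8 rose and 0 fell, and their summed linear level was 17098 to 19597 in bleomycin lungs, against 6430 to 8309 in saline lungs. For 6 fibroblast genes the sum was 17830 to 24898 in bleomycin lungs and 10546 to 13960 in saline lungs. The collagen genes Col1a1, Col1a2 and Col3a1 rose, while the receptor genes Pdgfra and Pdgfrb differed by -0.38 and -0.42 and were not called. For 5 B and plasma cell genes the sum was 9599 to 16161 in bleomycin lungs and 2835 to 5939 in saline lungs, with a median difference of -0.22. The antibody joining chain gene Jchain rose and the antibody heavy chain gene Ighm differed by 1.74, while the B cell genes Cd79a, Cd79b and Ms4a1 differed by -0.22, -0.45 and -0.44, none of these 4 called. The 6 endothelial markers summed to 6670 to 8473 in bleomycin lungs against 9779 to 12038 in saline lungs, with 1 called lower (Kdr). The sums overlapped between the groups for 8 epithelial, 5 T cell, 5 neutrophil and 2 erythroid markers, with 0 called in either direction in limma and 0 at an unadjusted p under 0.05. The lowest value of any marker in these lists was 4.95, in the erythroid list. Without detection calls, whether the dimmer markers were above background is unknown. The part of these cell types in the replication genes was not tested, and in whole lung more cells in cycle cannot be told apart from more RNA per cell.

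Promoters of the genes were searched for the E2F motif, the site of the factors that switch on S phase genes. RefSeq promoter windows of GRCm38.p6, each of 300 bases from 250 before to 50 after a start site, were at hand for 40 of the 45 genes (4 of them with several windows), and Exo1, Gmnn, Mcm4, Pole and Prim2 were not analysed here. The motif was searched on both strands as TTTCCCGC, TTTCGCGC, TTTGCCGC or TTTGGCGC. It was found in 13 of 30 replication genes (43.3%) and 3 of 10 repair genes (30%, Brca2, Msh6 and Xrcc6), beside 4.07% of 9887 genes on the array with a window and 2.61% of 27025 genes in the table. The CCAAT box, searched on both strands as CCAAT, was found in 23 of the 40 (57.5%) and in 42.3% of the 9887. The median GC content of the windows was 61.3% for the 40 genes and 59% for the 9887. Median differences were 0.42 in the 13 replication genes with an E2F match and 0.39 in the 17 without, with overlapping ranges of 0.08 to 0.83 and -0.23 to 1.34. A match is a description of letters and does not show binding.

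5 windows are shown, with E2F matches in capitals: licensing genes Mcm5 and Mcm3 and the called gene Rfc3, which each hold 2 matches, and, with no match, Rrm2, which had the largest difference, and Atm, whose bleomycin lungs were all lower. They lie at chr8:75109259-75109558 (strand +, Mcm5), chr1:20820263-20820562 (strand -, Mcm3), chr5:151651159-151651458 (strand -, Rfc3), chr12:24708004-24708303 (strand +, Rrm2) and chr9:53536622-53536921 (strand -, Atm) of GRCm38.p6, and each is printed on the gene's strand, 5′ to 3′.
Mcm5: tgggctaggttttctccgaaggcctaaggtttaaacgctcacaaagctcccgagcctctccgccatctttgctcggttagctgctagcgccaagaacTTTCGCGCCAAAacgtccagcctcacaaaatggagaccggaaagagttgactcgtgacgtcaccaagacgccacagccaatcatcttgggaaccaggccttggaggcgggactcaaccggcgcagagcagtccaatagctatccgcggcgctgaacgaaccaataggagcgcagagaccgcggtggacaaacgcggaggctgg
Mcm3: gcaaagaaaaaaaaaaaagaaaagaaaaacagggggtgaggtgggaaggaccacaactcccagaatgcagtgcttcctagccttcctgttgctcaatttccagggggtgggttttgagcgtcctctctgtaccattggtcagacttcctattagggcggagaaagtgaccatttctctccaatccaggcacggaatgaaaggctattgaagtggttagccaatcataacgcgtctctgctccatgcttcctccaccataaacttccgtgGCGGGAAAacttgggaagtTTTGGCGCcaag
Rfc3: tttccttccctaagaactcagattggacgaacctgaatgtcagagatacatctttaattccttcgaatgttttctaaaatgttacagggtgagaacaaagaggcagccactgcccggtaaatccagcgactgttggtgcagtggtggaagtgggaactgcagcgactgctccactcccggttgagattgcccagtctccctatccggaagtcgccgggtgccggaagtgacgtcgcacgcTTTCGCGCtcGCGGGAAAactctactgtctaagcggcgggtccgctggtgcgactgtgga
Rrm2: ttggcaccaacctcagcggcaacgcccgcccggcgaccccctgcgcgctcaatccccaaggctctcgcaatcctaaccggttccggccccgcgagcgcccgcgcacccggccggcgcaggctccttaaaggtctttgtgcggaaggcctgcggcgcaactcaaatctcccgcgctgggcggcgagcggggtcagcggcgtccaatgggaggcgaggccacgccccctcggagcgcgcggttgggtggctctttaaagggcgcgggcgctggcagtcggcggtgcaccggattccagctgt
Atm: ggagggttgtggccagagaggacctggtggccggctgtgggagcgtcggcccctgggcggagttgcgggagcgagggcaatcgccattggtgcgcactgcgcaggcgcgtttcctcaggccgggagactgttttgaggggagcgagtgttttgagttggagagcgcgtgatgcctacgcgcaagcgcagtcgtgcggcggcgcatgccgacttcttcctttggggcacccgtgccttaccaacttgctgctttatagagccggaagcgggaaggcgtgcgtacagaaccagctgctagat
In Mcm5 the 2 matches overlap, one on each strand, and in Rfc3 one lies just before the start site and the other begins at it. In Mcm3 both lie after the start site.

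Nucleotide supply held the largest difference. Rrm2, the small subunit of ribonucleotide reductase that limits deoxynucleotide synthesis in S phase, stood at 8.87, 8.31 and 8.09 in bleomycin lungs D, E and F, against 7.12, 7.05 and 7.09 in saline lungs A, B and C. The saline lungs were nearly equal (7.09 ± 0.04, SD, n = 3), and all 3 bleomycin lungs were above them (8.42 ± 0.40, SD, n = 3). Rrm2 rose 2.53-fold, by 1.34 ± 0.19 log2 units (SE, n = 3 each, limma adjusted p = 0.00786). The probe set used has the _x_at suffix, which marks probes shared with other sequences. The 2 other probe sets of Rrm2, without this suffix, rose by 1.01 and 0.96 (adjusted p = 0.0104 for each). The call was lost without saline A (adjusted p = 0.0524), with a difference of 1.36 there.

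Its partner Rrm1, the catalytic large subunit, stood at 9.12, 8.58 and 8.58 in D, E and F, against 8.19, 8.12 and 8.17 in A, B and C. The groups did not overlap, and the difference of 0.59 ± 0.16 (SE, n = 3 each) had a limma adjusted p of 0.0715. Tk1, the thymidine kinase of the salvage route in S phase, stood at 8.56, 7.71 and 7.77 in D, E and F, against 6.86, 7.27 and 7.15 in A, B and C, with lung D highest and the groups apart. Its difference of 0.92 ± 0.22 (SE, n = 3 each) just missed the threshold (limma adjusted p = 0.057), and passed it in the fits without dim probe sets, with the trended robust prior, with array weights, with ribosomal centring and on gene means (adjusted p = 0.0365 to 0.0482). It also passed without saline B and bleomycin D together (0.0426), while with 1 array left out it was 0.0514 to 0.147. Dut, which removes dUTP so that uracil is kept out of DNA, differed by 0.40 ± 0.11 (SE, n = 3 each, limma adjusted p = 0.0786), at 7.30 to 7.39 in bleomycin lungs and 6.84 to 7.07 in saline lungs. Its second probe set differed by 0.06. Tyms, the thymidylate synthase of the de novo route, did not follow: it read 5.07 to 5.19 in bleomycin lungs and 5.05 to 5.33 in saline lungs, a difference of -0.08 with a 95% interval of -0.34 to 0.18. Its other probe sets differed by -0.07 and 0.03, and whether Tyms was above background is unknown.

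Clamp loading came next. Replication factor C opens the PCNA ring and loads it onto DNA, and 3 of its small subunits were listed. Rfc4 stood at 7.04, 7.11 and 6.79 in D, E and F, against 6.37, 6.53 and 6.30 in A, B and C. All 3 bleomycin lungs were higher, and Rfc4 rose 1.49-fold, by 0.58 ± 0.12 (SE, n = 3 each, limma adjusted p = 0.038). Its second probe set rose by 0.73 (adjusted p = 0.016). Rfc3 stood at 6.89, 6.53 and 6.74 in D, E and F, against 6.15, 6.22 and 6.17 in A, B and C, and rose 1.45-fold, by 0.54 ± 0.12 (SE, n = 3 each, limma adjusted p = 0.0426), while its second, dimmer probe set differed by 0.21 (adjusted p = 0.486). With 1 array left out the adjusted p of Rfc4 was 0.0572 to 0.115 and it never passed, and Rfc3 passed only without bleomycin E (0.0385, against 0.0852 to 0.133 in the other fits). Rfc3 also missed the threshold with ribosomal centring (0.0852) and on the mean of its probe sets (0.11). Rfc5 differed by 0.39 ± 0.12 (SE, n = 3 each, limma adjusted p = 0.0946), at 7.98 to 8.23 in bleomycin lungs and 7.63 to 7.81 in saline lungs.

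**Figure D2:**
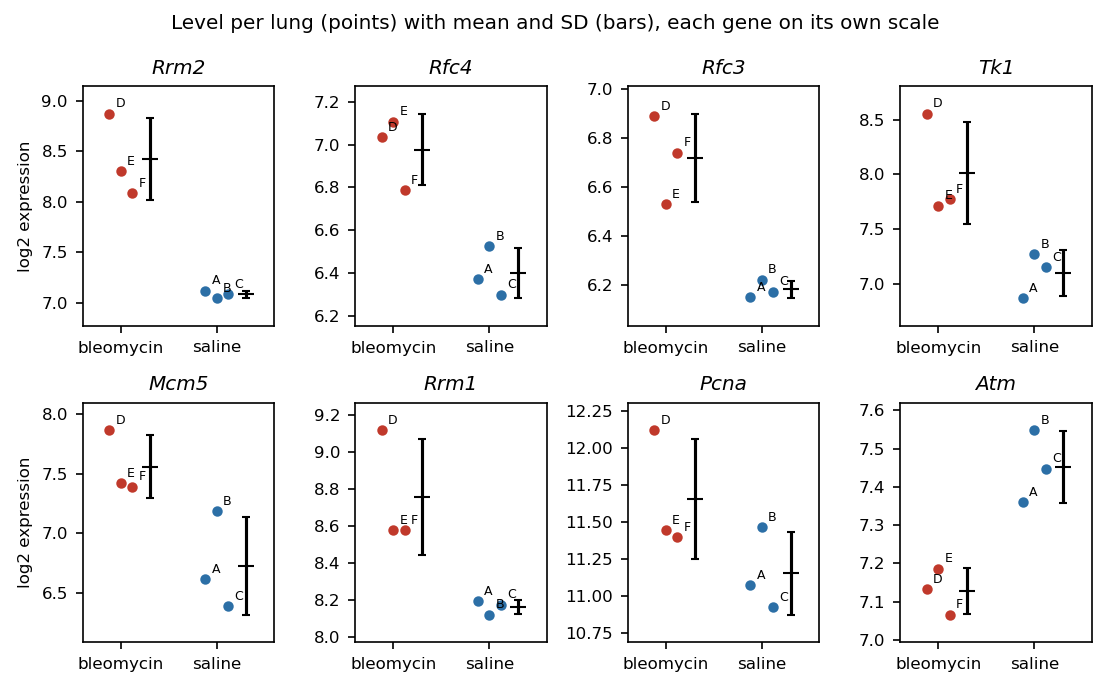
Log2 expression of 8 genes in each bleomycin lung (red, D, E and F) and each saline lung (blue, A, B and C), with the mean and SD of each group as black bars and each gene on its own scale. Rrm2, Rfc4, Rfc3, Tk1, Mcm5 and Rrm1 have all bleomycin lungs above all saline lungs, Pcna overlaps, with saline B at 11.47, and Atm lies the other way.

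Pcna, the clamp itself, stood at 12.12, 11.45 and 11.40 in D, E and F, against 11.07, 11.47 and 10.92 in A, B and C. Saline B was above bleomycin E and F, and the difference of 0.50 ± 0.22 (SE, n = 3 each) was not called (limma adjusted p = 0.227). The rest of this group gave values near 0. Lig1, the ligase that joins Okazaki fragments, differed by 0.09 (95% interval -0.16 to 0.34). Fen1, the flap nuclease that trims those fragments, differed by 0.00 (-0.29 to 0.30), read by a probe set whose _x_at suffix marks probes shared with other sequences, and its other probe set differed by 0.48 (adjusted p = 0.12). The single-strand binding subunits Rpa1 and Rpa2 differed by -0.23 (-0.55 to 0.09) and -0.12 (-0.46 to 0.23), and their second probe sets by 0.09 and 0.22.

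Origin licensing genes included 0 calls in limma, with 5 of 10 higher at an unadjusted p under 0.05, beside 11.7% of all genes. Of the 10 differences 9 were positive, and 7 genes had all bleomycin lungs above all saline lungs, beside 13.3% of all genes. Gmnn and Cdc6, among the 7, were close to ties. Lung F read 7.912 against 7.91 in saline A for Gmnn, and 5.373 against 5.363 in saline C for Cdc6. Mcm2 to Mcm7 form the ring of the replicative helicase. Mcm5 stood at 7.86, 7.42 and 7.39 in D, E and F, against 6.61, 7.19 and 6.39 in A, B and C. Saline B was the highest of the saline lungs, just under the bleomycin ones. The difference was 0.83 ± 0.22 (SE, n = 3 each, limma adjusted p = 0.0686). Without saline B it was 1.06 and passed (adjusted p = 0.0263), as it did with ribosomal centring (0.0295) and without saline B and bleomycin D together (0.0164). Mcm6 stood at 9.75, 8.96 and 9.08 in D, E and F, against 8.98, 8.70 and 8.43 in A, B and C, with lung E just under saline A, and differed by 0.56 ± 0.22 (SE, n = 3 each, limma adjusted p = 0.19).

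Mcm3 differed by 0.53 ± 0.13 (SE, n = 3 each, limma adjusted p = 0.0642), at 8.63, 8.31 and 8.43 in D, E and F, against 8.04, 8.02 and 7.72 in A, B and C, with the groups apart, and passed with array weights (0.0366). Mcm7 and Cdt1, the factor that loads the helicase, differed by 0.42 and 0.40, with adjusted p of 0.115 and 0.116, and the second probe set of Cdt1 rose by 0.58 (adjusted p = 0.0377). The other probe sets of Mcm7 differed by 0.46, 0.19 and 0.07, none called. Smaller differences were seen in Mcm4 (0.24), Gmnn, the inhibitor of Cdt1 (0.23), Mcm2 (0.22) and the loader Cdc6 (0.13). The second probe set of Mcm4 differed by 0.02 and that of Mcm2 by 0.58, neither called. Mcm10, which helps to activate the helicase, was the exception at -0.10 (95% interval -0.40 to 0.21).

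**Figure D3:**
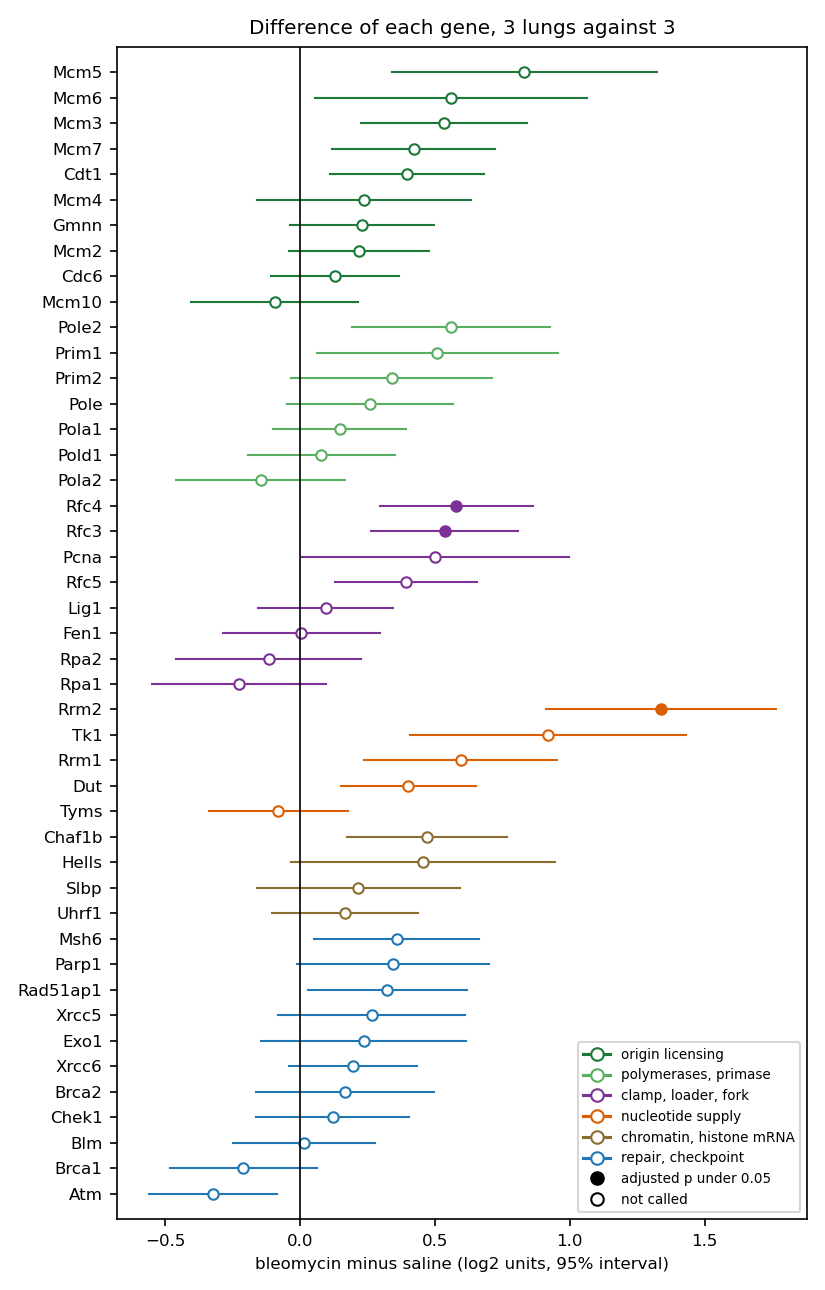
Difference between bleomycin and saline (log2 units) of each gene with its 95% interval from limma, coloured by role, with filled points for the 3 genes at an adjusted p under 0.05. The intervals, which are not adjusted for the number of genes, lie wholly above 0 for 18 of the 45 genes and wholly below 0 for 1, Atm. Such intervals match an unadjusted p under 0.05 in limma, which 11.7% of all genes met as higher and 1363 of 12393 as lower.

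Polymerase and primase genes had 0 calls in limma, with 2 of 7 higher at an unadjusted p under 0.05, beside 11.7% of all genes, and 6 of 7 differences positive. Pole2, a subunit of the leading-strand polymerase epsilon, stood at 7.34, 6.91 and 7.19 in D, E and F, against 6.33, 6.82 and 6.61 in A, B and C. The groups were close but apart, with a difference of 0.56 ± 0.16 (SE, n = 3 each, limma adjusted p = 0.0902). Prim1, the catalytic primase subunit, stood at 8.35, 7.88 and 7.51 in D, E and F, against 7.27, 7.48 and 7.47 in A, B and C, a difference of 0.51 ± 0.20 (SE, n = 3 each, limma adjusted p = 0.181). Lung F was only just above the highest saline lung, and the second probe set of Prim1 differed by 0.13. Prim2, the other primase subunit, differed by 0.34 (second probe set -0.10) and the epsilon catalytic subunit Pole by 0.26. The delta catalytic subunit Pold1 differed by 0.08, read by an _x_at probe set, and by 0.23 in its second probe set. Pola1 and Pola2, both of polymerase alpha, differed by 0.15 and -0.15, and the second probe set of Pola2 by -0.35 (limma adjusted p = 0.082). Pola1 is the only one of these genes on the X chromosome, and on saline B it read 6.85, between saline A (6.76) and C (6.87).

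Chromatin genes had 4 measured members, all with positive differences, 0 called in limma and 1 higher at an unadjusted p under 0.05, beside 11.7% of all genes. Chaf1b, a subunit of the assembly factor that places histones behind the fork, stood at 6.46, 6.08 and 6.13 in D, E and F, against 5.71, 5.86 and 5.69 in A, B and C. The groups were apart, with a difference of 0.47 ± 0.13 (SE, n = 3 each, limma adjusted p = 0.0814). Hells, a chromatin remodeller needed for DNA methylation, stood at 5.95, 5.76 and 5.27 in D, E and F, against 4.82, 5.34 and 5.46 in A, B and C, so lung F overlapped the saline lungs, and differed by 0.45 ± 0.21 (SE, n = 3 each, limma adjusted p = 0.269). Slbp, which binds histone mRNA, differed by 0.22. Uhrf1, which brings the maintenance methyltransferase to replicated DNA, differed by 0.17 (adjusted p = 0.46), while its second probe set rose by 0.64 (adjusted p = 0.0277).

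Repair genes were ordered by the lesion they serve. In mismatch repair, Msh6, which recognises base mismatches, had the largest difference of the repair genes. It stood at 7.21, 6.81 and 7.20 in D, E and F, against 6.78, 6.67 and 6.70 in A, B and C, with lung E only just above the highest saline lung. The difference was 0.36 ± 0.13 (SE, n = 3 each, limma adjusted p = 0.17). Exo1, the nuclease that removes the mismatched strand, differed by 0.24 ± 0.17 (SE, n = 3 each, adjusted p = 0.457), and the groups overlapped. Its second probe set differed by -0.02.

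Break sensors and end joining gave mixed values. Parp1, which senses strand breaks and builds poly(ADP-ribose), stood at 9.24, 8.79 and 8.86 in D, E and F, against 8.45, 8.84 and 8.58 in A, B and C, and differed by 0.34 ± 0.16 (SE, n = 3 each, limma adjusted p = 0.25). Saline B lay above lung E, and the other probe sets of Parp1 differed by 0.13 and 0.12. Xrcc5 and Xrcc6 encode Ku80 and Ku70, which bind broken ends for joining. They differed by 0.26 ± 0.15 and 0.20 ± 0.10 (SE, n = 3 each, adjusted p = 0.357 and 0.319), and the groups were apart for Xrcc6, at 7.21 to 7.41 in bleomycin lungs and 7.07 to 7.15 in saline lungs.

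Atm, the kinase that is switched on by broken DNA and works mainly through phosphorylation, went the other way. It read 7.13, 7.19 and 7.07 in D, E and F, against 7.36, 7.55 and 7.45 in A, B and C. All 3 bleomycin lungs were lower, but the difference of -0.32 ± 0.10 (SE, n = 3 each) was not called (limma adjusted p = 0.123). Chek1, the checkpoint kinase of stalled forks, differed by 0.12 ± 0.12 (SE, n = 3 each, adjusted p = 0.62). Its other probe sets differed by 0.33, -0.02 and 0.06, none called.

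Recombination genes had 0 calls by the probe set used. Rad51ap1, which acts in homologous recombination, stood at 6.18, 5.85 and 6.12 in D, E and F, against 5.58, 5.75 and 5.85 in A, B and C, a difference of 0.32 ± 0.13 (SE, n = 3 each, limma adjusted p = 0.195). Lung E was nearly level with saline C, and the other probe sets of Rad51ap1 differed by 0.25, -0.10 and 0.15, none called. Brca2, which acts in the same pathway, differed by 0.17 ± 0.14, and the helicase gene Blm by 0.01 ± 0.12 (SE, n = 3 each, adjusted p = 0.551 and 0.959). Brca1, which starts the resection of breaks, depended on the probe set. By the one with the highest mean it differed by -0.21 ± 0.12 (SE, n = 3 each, adjusted p = 0.349), and by the next brightest it rose by 0.55 ± 0.12 (adjusted p = 0.0441). The other 2 gave 0.22 and 0.17, neither called.

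**Figure D4:**
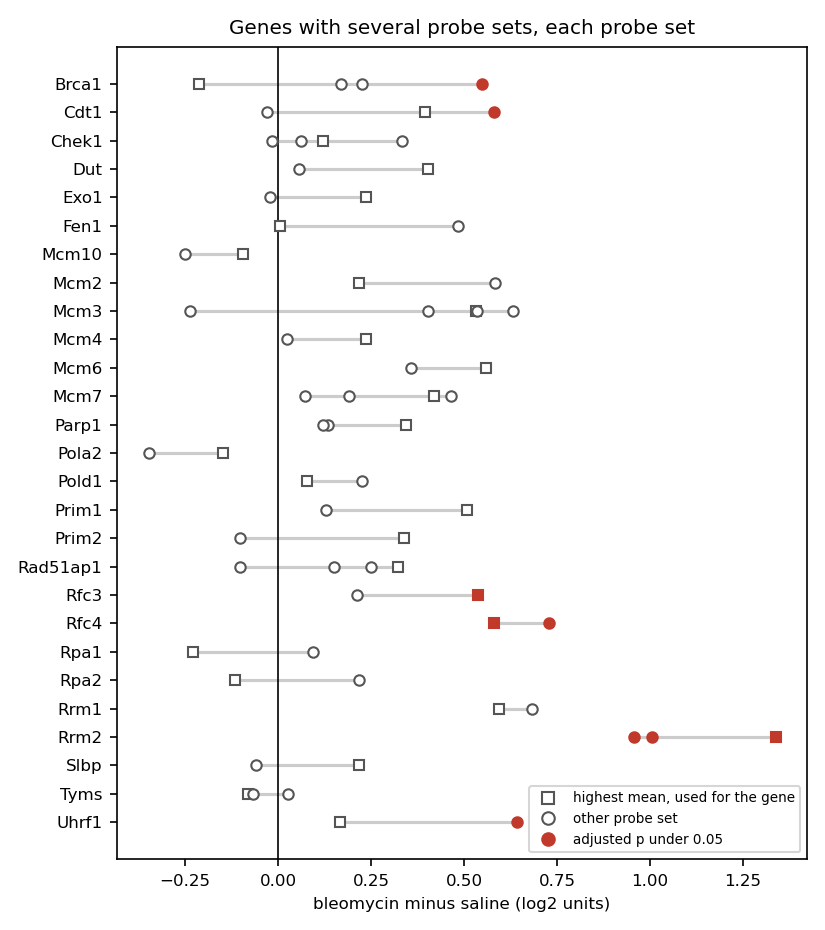
Difference between bleomycin and saline (log2 units) for every probe set of the 27 genes with several, with squares for the probe set with the highest mean and red for an adjusted p under 0.05. Rrm2 and Rfc4 are red in all their probe sets, and in Brca1, Cdt1 and Uhrf1 only a dimmer probe set is red.

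Among the 45 genes 27 had several probe sets, and in 11 of the 27 (40.7%) these differed in sign, beside 41.7% of the 4956 genes on the array with several. At least 1 probe set was called higher in 6 of the 45 genes (13.3%), beside 4.47% of all 12393 genes. The 45 genes had 87 probe sets and the 12393 genes 20380, so the 45 had more per gene. The shares take no account of this. The 6 genes were Rrm2, Rfc4, Rfc3, Cdt1, Uhrf1 and Brca1. What part of each transcript a probe set reads was not analysed here.

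Other genes of the same pathways were read from lists. Of 33 other replication genes 1 rose (3.03%) and 1 fell, beside 3.70% of all genes higher and 1.90% lower. Their median difference was 0.13. At an unadjusted p under 0.05, 6 of the 33 were higher and 1 lower, beside 11.7% of all genes higher and 1363 of 12393 lower. Dbf4, which activates the kinase that fires origins, rose by 0.75 ± 0.14 (SE, n = 3 each, limma adjusted p = 0.026), at 7.27 to 7.69 in bleomycin lungs and 6.54 to 6.85 in saline lungs, while its second probe set differed by 0.03. Rrm2b, the p53-inducible small subunit of ribonucleotide reductase, fell: it read 8.52, 8.83 and 8.68 in D, E and F, against 9.31, 9.39 and 9.14 in A, B and C, a difference of -0.60 ± 0.12 (SE, n = 3 each, limma adjusted p = 0.0341). The 2 alternative small subunits of 1 enzyme, Rrm2 and Rrm2b, thus changed in opposite directions. With 1 array left out, Dbf4 and Rrm2b each passed only without bleomycin E (adjusted p = 0.0334 and 0.0417), with 0.0558 to 0.0742 and 0.0563 to 0.108 in the other fits. Without both saline B and bleomycin D neither passed (0.0807 and 0.135), nor did Dbf4 on the mean of its probe sets (0.0677).

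Of 60 other repair and checkpoint genes, 0 rose and 0 fell in limma, with a median difference of -0.02. At an unadjusted p under 0.05, 5 of the 60 were higher and 6 lower, beside 11.7% of all genes higher and 1363 of 12393 lower. Of the 60, 7 had all bleomycin lungs above and 9 all below the saline lungs, beside 13.3% and 14.6% of all genes. The largest differences by pathway were 0.51 ± 0.16 for the damage-marking histone gene H2ax, 0.46 ± 0.14 for Ube2t of the Fanconi pathway and 0.39 ± 0.17 for the break nuclease gene Mre11a. Those of other pathways were negative: -0.33 ± 0.11 for the nucleotide excision sensor Xpc, -0.30 ± 0.13 for the base excision glycosylase Mutyh, -0.28 ± 0.19 for the end-joining factor Trp53bp1 and -0.21 ± 0.12 for the mismatch gene Msh3 (SE, n = 3 each). None of the 7 was called (limma adjusted p = 0.11 to 0.436).

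Of 25 genes that control entry into S phase, 2 rose and 1 fell, beside 3.70% of all genes higher and 1.90% lower. Their median difference was 0.11. At an unadjusted p under 0.05, 9 of the 25 were higher and 3 lower, beside 11.7% of all genes higher and 1363 of 12393 lower. In 7 of the 25 all bleomycin lungs were above the saline lungs and in 3 all below, beside 13.3% and 14.6% of all genes. Tfdp1, the dimer partner of E2F factors, rose by 0.61 ± 0.14 (SE, n = 3 each, limma adjusted p = 0.0433), and did not pass with any 1 array left out (0.0587 to 0.109), with ribosomal centring (0.0878) or with repeated quantile normalization (0.0574). Among 5 cyclin-dependent kinase inhibitor genes, 1 rose and 1 fell. Cdkn1a, which encodes p21 and is induced by p53, read 11.57, 11.67 and 11.61 in D, E and F, against 9.40, 9.56 and 10.02 in A, B and C, and rose 3.87-fold, by 1.95 ± 0.16 log2 units (SE, n = 3 each, limma adjusted p = 8.42e-04). Its call held in 6 of 6 fits with 1 array left out. Cdkn1c, which encodes p57, fell by 0.57 ± 0.12 (SE, n = 3 each, limma adjusted p = 0.0371) and passed only without saline C (0.0467) among those fits, with 0.0802 to 0.0983 in the others. Cdkn1b, which encodes p27, differed by -0.79 ± 0.30 (SE, n = 3 each, limma adjusted p = 0.171) and had all bleomycin lungs below all saline lungs, while Cdkn2c and Cdkn2d differed by 0.11 and 0.13 and were not called.

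Mitosis genes were set beside the replication genes as the later step of the same cycle. Of 19, 10 rose and 0 fell, beside 3.70% of all genes higher and 1.90% lower. The median difference was 0.79, and all 19 differences were positive, beside 5333 of 12393 over all genes. Cdk1, the mitotic kinase, rose 3.38-fold, the cyclin Ccnb2 3.38-fold, the proliferation marker Mki67 2.93-fold and the topoisomerase Top2a 2.47-fold (limma adjusted p = 0.00359, 0.00912, 0.00593 and 0.0115). Their median level relative to saline was 1.23, 0.63 and 0.73 in D, E and F, against -0.17, 0.14 and -0.00 in A, B and C, so lung D was again the highest. Without saline A 2 of the mitosis genes were called higher, and Ccnb2 and Top2a were among those lost (limma adjusted p = 0.0586 and 0.0636). Over all genes 163 were called higher in that fit, beside 458 with all arrays. Without each of the other single arrays 8 to 11 mitosis genes were called higher, beside 211 to 385 of all genes. The median difference of the mitosis genes was 0.58 without bleomycin D. A second probe set of Top2a differed by 0.10 and was not called. The difference between the mitosis and the replication genes was not tested.

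**Figure D5:**
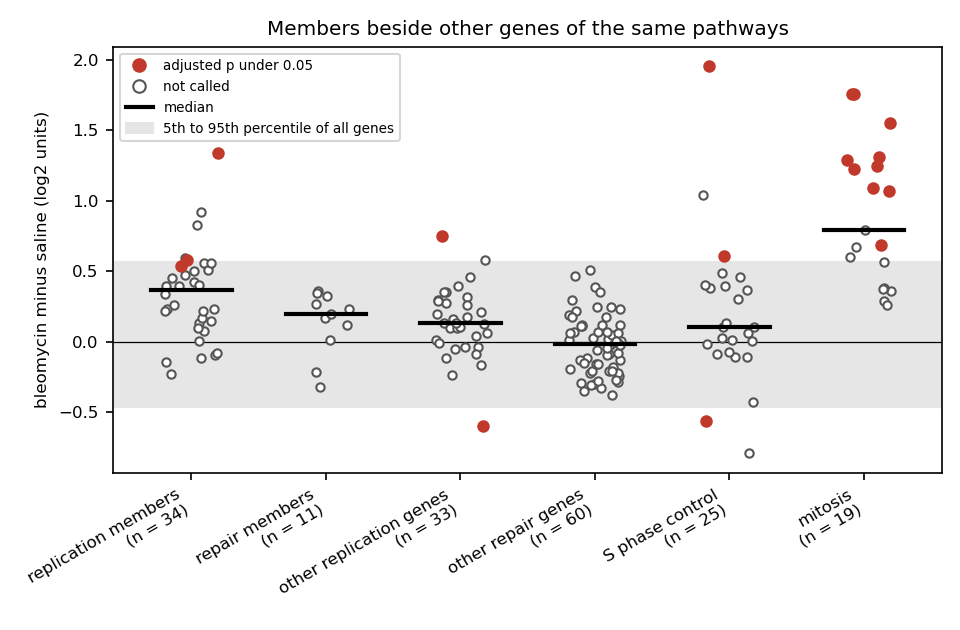
Difference between bleomycin and saline (log2 units) for each gene of 6 lists, with filled red points for an adjusted p under 0.05, a black bar for the list median and a grey band from the 5th to the 95th percentile of all genes. The medians are 0.37 for the replication genes followed here, 0.20 for the repair genes, 0.13 and -0.02 for other replication and other repair genes, 0.11 for S phase control and 0.79 for mitosis.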

How the data were processed

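The authors deposited log2 expression values per probe set. Per the labels and design text they come from RMA with quantile normalization, and the software version and chip definition were not stated in what was used. Detection calls are not used here. Of 22690 probe sets, 64 controls were left out and 22626 tested. GEO's platform annotation gave 1 symbol for 20380 of these, and 20351 were renamed or checked through Entrez IDs in RefSeq of GRCm38.p6.

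The groups were compared by lmFit and eBayes of limma 3.58.1 in R 4.3.3, with no covariates. Benjamini-Hochberg adjustment ran over all 22626 probe sets, with a threshold of 0.05. Each SE is limma's, and folds are 2 to the power of the difference. Arrays have no read depth, and 3 per group limit the precision. The fit was tested on simulated data.

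The genes and lists were chosen with earlier results of these data known. Values per array were given, in each role, for up to 5 called genes with the largest differences, and for the 2 largest differences where fewer than 2 were called. Xrcc5, Xrcc6, Parp1, Atm and Cdkn1a were named whatever their result. Each other list gave up to 4 called genes, or its largest difference. Further values, such as those per array of Rrm1, Mcm3, Pcna and Rad51ap1 and those of Cdkn1b, Cdkn2c and Cdkn2d, were picked after they were seen. Plots used matplotlib 3.10.9 under Python 3.11.15.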

Additional observations from a re-analysis of the deposited data

How the results depend on the processing

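The median difference of the replication genes was 0.23 to 0.43 and that of the repair genes 0.08 to 0.34 over all alternatives run, all positive. The upper value for repair rests on 1 gene left by a filter at the median. With 1 array left out, the replication median was 0.24 to 0.43, the repair median 0.08 to 0.29, replication genes called higher 0 to 2, and called genes over the whole array 163 to 385 higher and 22 to 165 lower, where each fit has fewer samples. Replication genes called higher were 5 with array weights, where 599 genes in all were higher and 341 lower, and 1 at a threshold of 0.01, where 143 genes in all were higher and 20 lower. By the next brightest probe set 1 repair gene was called higher, Brca1, at 0.55 in place of -0.21, and the cause was not tested. Without saline B and bleomycin D together, a choice made after seeing the data, 3 replication genes were higher, and 335 genes in all were higher and 100 lower. No paired analysis was possible because no letter from A to F occurs in both groups. Without detection calls, whether genes of low signal lie above background is unknown.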
